A study of Mus musculus with 51 samples.

Results

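Hsf1 and Cryab, 2 of the 6248 genes measured, were followed across neuron and supporting-cell regions of the mouse cochlea after noise or mock exposure. They were chosen by name: their values were read from the signal file of every region, over the 4 groups, leaving out 1 region of noise neurons (replicate 6) whose values were all equal. HSF1 is the transcription factor that switches on the heat-shock response. In unstressed cells it is held inactive by the Hsp90 and Hsp70 chaperones, and it is freed when unfolded protein draws those chaperones away. Cryab encodes αB-crystallin, a small heat-shock protein that binds unfolding proteins and the cytoskeleton without using ATP. It is a known target of HSF1, and is abundant in lens, muscle and many glial cells.

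The regions were captured with GeoMx, which releases probe barcodes from selected parts of a section for counting by sequencing. Male CBA/CaJ mice aged 16 weeks, 5 per treatment, were exposed to broadband noise (100 dB SPL for 2 h) or to a mock condition without noise, and 6 µm fresh-frozen sections were used. Titles added 4 h to the exposure, whereas the design text has the animals taken as soon as it ended. The study title concerns a compound that activates the heat-shock pathway, but no animal in these 4 groups was given one. The regions used were 16 mock neuron, 12 noise neuron, 14 mock supporting-cell and 8 noise supporting-cell regions. Every group held more regions than the 5 animals, and the labels tied no region to an animal. Some regions must therefore come from the same animal, which makes all p-values over regions below too small. The spread between regions may also be partly technical. Each treatment had its own set of captured areas, so area and treatment cannot be told apart.

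The neuron regions carried neuronal markers and the supporting-cell regions carried markers of Schwann cells and satellite glia. At an adjusted p below 0.05 (limma), all 10 neuronal markers tested were higher in mock neurons, as were 13.4% of all genes. In mock supporting cells 7 of 8 glial markers were higher, as were 5.63% of all genes. The exception was S100b, with a mean signal of 4.64 in mock neurons and 4.15 in mock supporting cells. Of the 9 listed markers of organ of Corti supporting cells, 2 were in the files. Sox2 was too low to be tested, and Prox1 had a log2 difference of 0.14 ± 0.19 (SE) between the region types (limma, adjusted p = 0.646). The supporting-cell regions are therefore called by their label without further naming. Depth was low, with 9607 to 88156 recovered reads per region and a lowest value of 1 read in each. Values are the authors' signal, which had the same upper quartile of 3.12 in every region, and fold changes are on the log2(signal + 1) scale. RefSeq (GRCm38.p6) places the protein-coding gene Hsf1 at chr15:76477362-76501155 and Cryab at chr9:50745951-50756636. The span of Cryab holds that of Hspb2, another small heat-shock gene (chr9:50751072-50752354), which was not analysed here.

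Cryab signal was highest in mock supporting cells, lower in noise supporting cells and lowest in neurons of either treatment. In mock supporting cells the signal was 12.9 ± 4.29 (SD, n = 14), with a lowest value of 5.20, a median of 14.6 and a highest of 17.7. In noise supporting cells it was 7.17 ± 2.59 (SD, n = 8). In order of replicate number, the 8 noise values were 6.24, 9.36, 8.32, 4.68, 7.28, 11.8, 4.16 and 5.46. All 8 lay below the mock mean, 2 lay below every mock region, and 9 of the 14 mock regions lay above every noise region, although the ranges overlapped. Neurons had 4.37 ± 1.28 after mock exposure (SD, n = 16; lowest 1.56, median 4.42, highest 6.24) and 3.99 ± 1.57 after noise (SD, n = 12; lowest 1.04, median 3.77, highest 6.24). In the order of the 4 means, noise and mock neurons overlapped over most of their ranges, as did their SDs, and the SD ranges of mock neurons and noise supporting cells also met. The mock supporting-cell mean stood above the rest by more than its own SD.

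Hsf1 signal had the same highest group but another order below it. In mock supporting cells it was 2.96 ± 1.54 (SD, n = 14; lowest 1.04, median 3.12, highest 6.24). In noise supporting cells it was 1.34 ± 1.00 (SD, n = 8), with values of 0.780, 1.56, 1.04, 0.780, 1.04, 3.74, 1.04 and 0.780 in order of replicate number. Of these 8 regions 7 lay below the mock mean and replicate 6 stood apart above it. Hsf1 had 1.58 ± 0.881 in mock neurons (SD, n = 16; lowest 0.520, median 1.56, highest 3.12) and 1.54 ± 0.781 in noise neurons (SD, n = 12; lowest 0.780, median 1.51, highest 3.64). The means of noise supporting cells, noise neurons and mock neurons lay within 1 SD of one another.

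**Figure D1:**
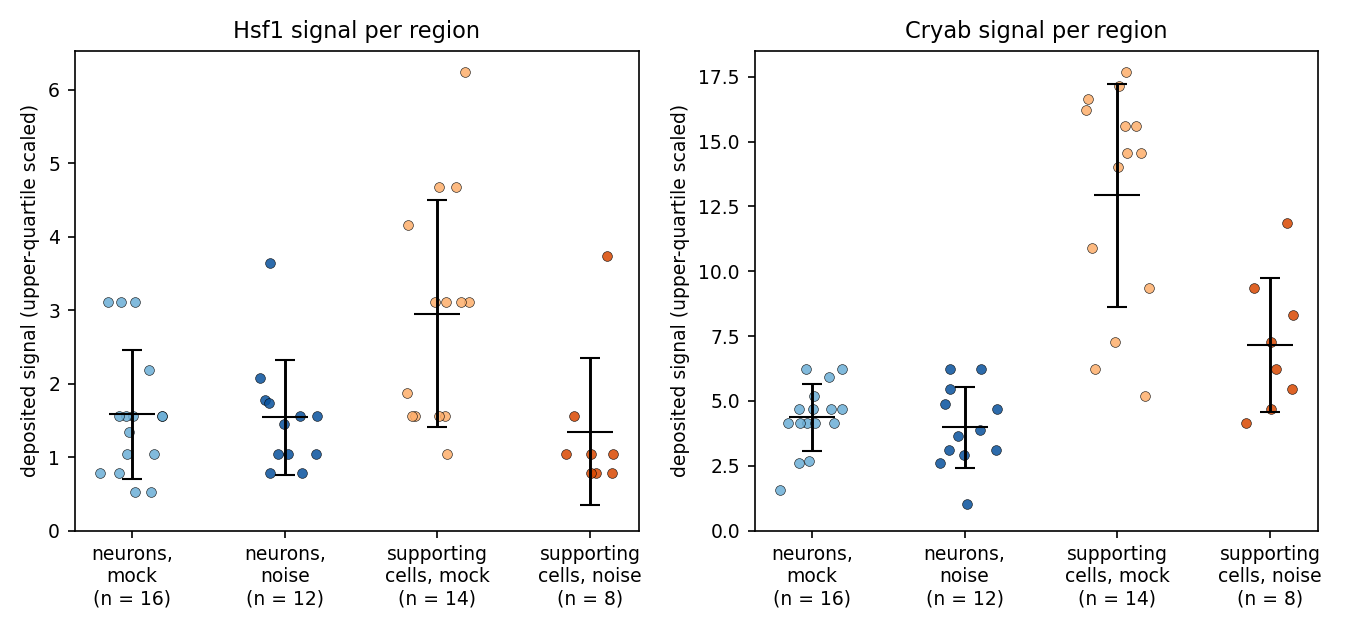
Deposited signal of Hsf1 (left) and Cryab (right) in every region used, by region type and treatment; 1 point is 1 region, horizontal bars are means and whiskers are SDs. Cryab reached 17.7 in mock supporting cells and 6.24 in neurons of either treatment, while the 4 groups of Hsf1 overlapped.

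The reads behind the 2 genes differed in number. Cryab had a median of 5.5 reads per neuron region after mock (range 2 to 19) and 7 after noise (1 to 14), and of 10 reads per supporting-cell region after mock (4 to 26) and 7 after noise (4 to 19). It exceeded the negative probe, a probe with no target, in 16 of 16, 11 of 12, 14 of 14 and 8 of 8 regions of these groups. Hsf1 had medians of 1.5, 2, 3 and 1 reads in the same order. It stood at 1 read, the floor of its region, in 8 of 16 mock neuron, 5 of 12 noise neuron, 5 of 14 mock supporting-cell and 7 of 8 noise supporting-cell regions. It exceeded the negative probe in 8 of 16, 6 of 12, 9 of 14 and 1 of 8. In 1 of the 8 noise supporting-cell regions, replicate 6, Hsf1 was thus measured above its floor and its background. The signal that 1 read was worth had a median of 0.780 (mock) and 0.650 (noise) in neurons and of 1.30 (mock) and 0.910 (noise) in supporting cells, so the floor was itself higher in mock than in noise supporting cells.

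**Figure D2:**
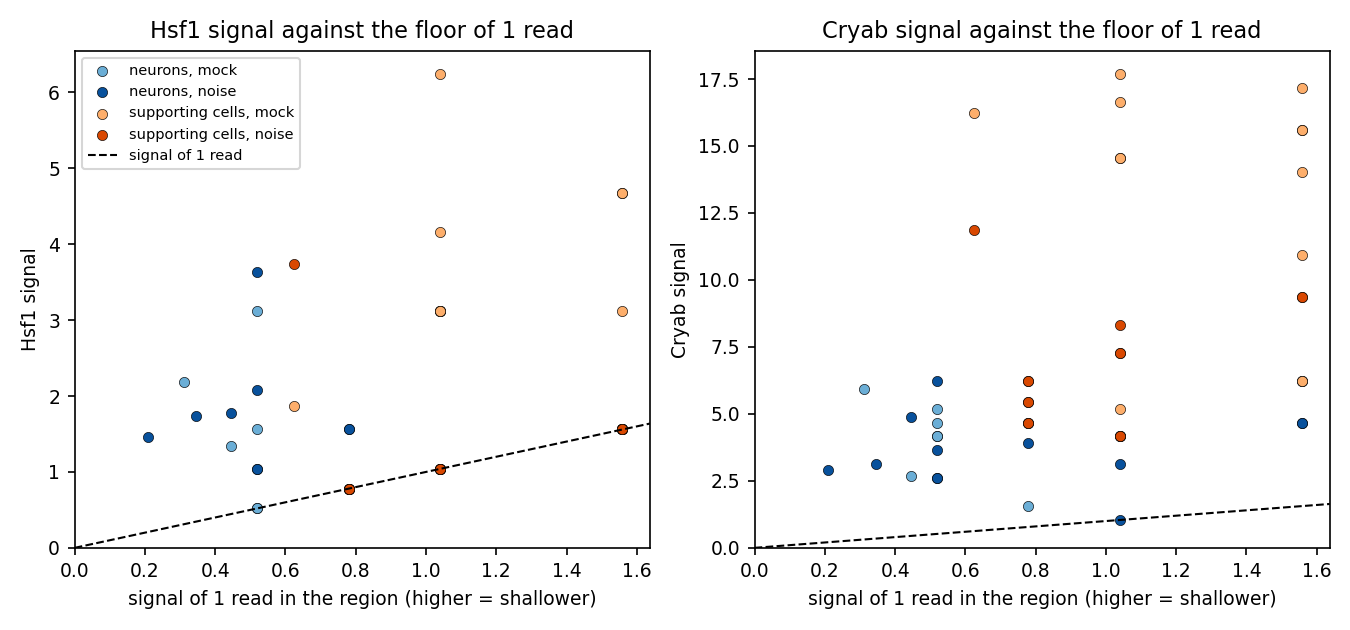
Signal of Hsf1 (left) and Cryab (right) in each region against the signal of 1 read in that region, which is larger in shallower regions; the dashed line marks equality. Hsf1 lies on the line in 7 of 8 noise supporting-cell regions, whereas Cryab lies on it in 1 region, noise neuron replicate 12.

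Noise against mock in supporting cells asks whether either transcript changed where its mock level was highest. Mean Cryab signal in noise regions was 0.554 of that in mock regions. The log2 difference was −0.75 ± 0.25 (SE; 95% interval −1.24 to −0.26; n = 8 and 14), with an adjusted p of 0.159 over all genes (limma). Hsf1 passed the filter on low mean signal only through mock supporting cells, the higher group here. Its values gave a log2 difference of −0.74 ± 0.22 (SE), with an adjusted p of 0.108 (limma). That difference is no measured fold, since 7 of the 8 noise values were the floor of their region, and the same holds for every Hsf1 comparison below that uses noise supporting cells. Neither gene passed, in a comparison where 17 of 4686 genes did (0.363%), 14 of them lower after noise (0.299%); after quantile normalization 26 of 53 calls were lower, and after subtraction of the negative probe 6 of 12. The 17 calls became 3 without noise supporting-cell replicate 7, 7 without replicate 5 or 8 and 11 without replicate 4, and 9 to 11 without any 1 of mock replicates 6, 8, 9 and 12. As single values, unadjusted and among 8 such tests, the exact two-sided permutation test gave p = 0.00497 for Cryab and p = 0.00541 for Hsf1, over regions some of which share an animal. The log2 difference of Cryab was among the lowest of all genes tested, with 0.683% of genes below it.

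The call depended on the test. Cryab passed in edgeR on recovered reads (−0.87, adjusted p = 0.0487), in DESeq2 (−0.85, adjusted p = 0.0332) and in limma with a pseudocount of 10 (−0.41, adjusted p = 0.0241). Hsf1 did not pass in edgeR (adjusted p = 0.661), and DESeq2 gave it no adjusted p, but limma gave −0.89 (adjusted p = 0.0292) without noise supporting-cell replicate 6. That replicate was the 1 noise region with more than 1 read of Hsf1, so this value sets mock regions against 7 floors of 0.780 to 1.56 and measures no level after noise. With every value raised to the floor of the shallowest region, 1.56, the Hsf1 difference was −0.44 (limma, adjusted p = 0.225) and that of Cryab stayed at −0.75 (adjusted p = 0.149). The fit with replicate numbers as a block gave −0.83 for Hsf1 (limma, adjusted p = 0.0751) and −0.76 for Cryab (adjusted p = 0.201).

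Markers of Schwann cells and satellite glia moved with both genes in the supporting-cell regions. All 8 glial markers tested were lower after noise, 4 of them past the threshold, with a median log2 difference of −0.92 (−0.03 over all genes tested). Their summed signal ranged from 96.7 to 173 after mock and from 43.7 to 78.0 after noise in the supporting-cell regions, without overlap, and from 22.9 to 48.9 and from 15.6 to 31.2 in the neuron regions. The lowest value of every region was taken as 1 read, so no marker could be at 0. Apoe stood at that floor of 1 read in 4 of 8 noise supporting-cell regions. With the mean of these markers as a covariate, an alternative chosen after seeing the data, the noise difference was −0.43 for Cryab (limma, adjusted p = 0.819) and −0.58 for Hsf1 (adjusted p = 0.640). In captured tissue, fewer cells of a type and less RNA per cell cannot be told apart. Coch, a fibrocyte marker, fell by 0.95 on the log2 scale between the same regions (limma, adjusted p = 0.0332). The covariate fit cannot divide the noise difference, because the marker means of mock and noise supporting-cell regions did not overlap. The part of any of these in the results for Cryab and Hsf1 was not tested.

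**Figure D3:**
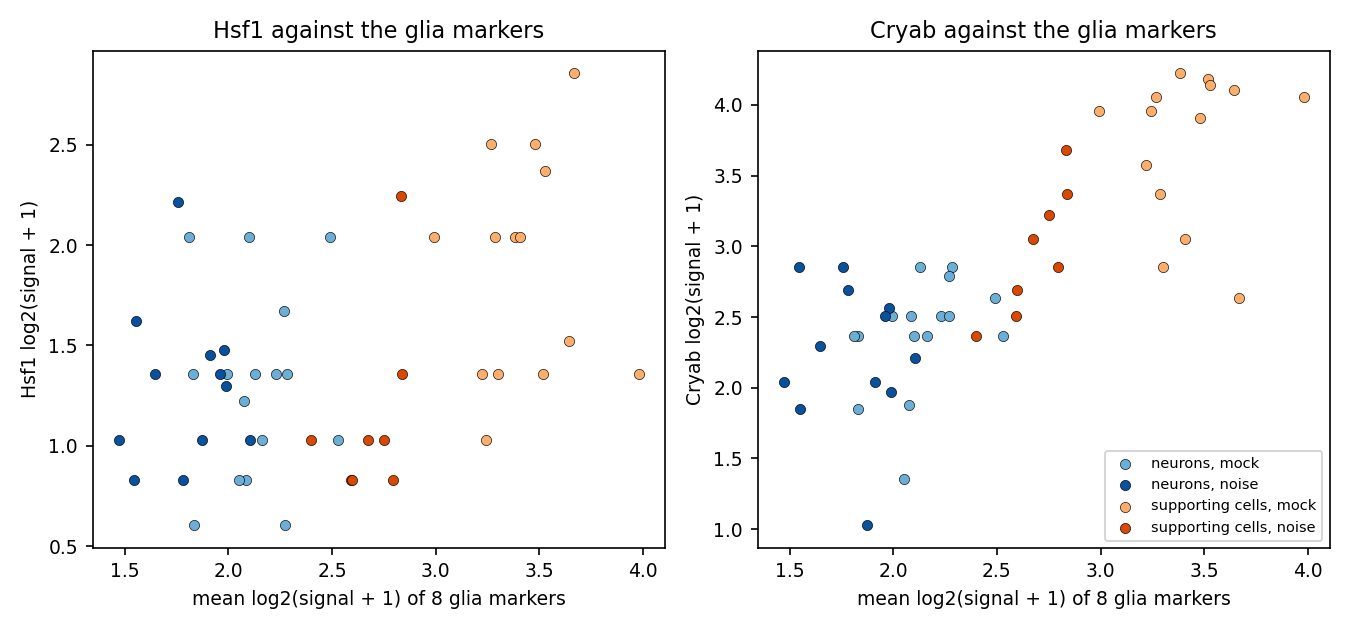
Hsf1 (left) and Cryab (right) in each region, as log2(signal + 1), against the mean log2(signal + 1) of 8 markers of Schwann cells and satellite glia. Mock supporting-cell regions lie at 2.99 to 3.98 on the marker axis and noise supporting-cell regions at 2.40 to 2.84, with no overlap.

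Across all 50 regions, which share sections and scaling and fall into 4 groups, Cryab had a Pearson r of 0.79 with the glial marker mean, and 0.19 once group means were removed. Group by group, r for Cryab was 0.87 in the 8 noise supporting-cell regions, 0.048 in the 14 mock supporting-cell regions, 0.40 in mock neurons and −0.092 in noise neurons. For Hsf1 it was 0.43 over all regions and 0.091 without group means. These values were computed after the plot of the markers was seen, and are given as a description.

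In neurons neither gene moved between treatments by more than the spread between regions. Hsf1 stood at the floor of 1 read in 8 of 16 mock and 5 of 12 noise neuron regions, so a change below the floor would not show. The log2 difference of noise against mock was −0.14 ± 0.21 (SE; 95% interval −0.56 to 0.28) for Cryab and −0.0023 ± 0.19 (SE; 95% interval −0.37 to 0.36) for Hsf1. The adjusted p was 0.818 and 0.997 (limma), against 31 of 4686 genes called (0.662%). The permutation test with 100000 resamples gave p = 0.434 for Cryab and p = 0.996 for Hsf1, both two-sided and over regions that may share an animal. The intervals leave room for a change of either sign, and missing the threshold does not show that the levels were equal. The 8 glial markers had a median of −0.31 in neuron regions with 1 called lower, and the 10 neuronal markers a median of −0.42 with 2 called lower. Whether these bear on Hsf1 or Cryab there was not tested.

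The noise effects in the 2 region types were compared directly. Supporting cells minus neurons gave −0.73 ± 0.29 (SE) for Hsf1 and −0.61 ± 0.33 (SE) for Cryab, with adjusted p of 0.601 and 0.857 (limma). Here too Hsf1 passed the filter on low mean signal only through mock supporting cells, which enter this difference. No gene of 4686 passed in limma (0%), with 263 at an unadjusted p below 0.05. None of 4646 passed in edgeR or DESeq2, with 185 and 121 at an unadjusted p below 0.05, while limma with a pseudocount of 10 and with quantile normalization each called 1 gene. A different response of either gene in the 2 region types was therefore not shown at this depth.

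Between the region types of mock animals Cryab was the stronger contrast. Mean Cryab signal was 2.96 times as high in supporting cells as in neurons. All 16 neuron regions lay below the supporting-cell mean, and 12 of 14 supporting-cell regions lay above every neuron region. Neurons minus supporting cells gave −1.34 ± 0.21 (SE; 95% interval −1.74 to −0.94; limma, adjusted p = 3.31e-09), the ninth lowest value of all genes tested. For Hsf1 the mean was 1.87 times as high in supporting cells, and the log2 difference was −0.59 ± 0.18 (SE; 95% interval −0.94 to −0.24; limma, adjusted p = 0.00851). Hsf1 entered the test with a mean of 1.92 over all regions against a minimum of 1.85, which it reached through mock supporting cells, the other 3 group means being below it. The filter thus used the group in which this comparison finds Hsf1 high. With no filter on low values the adjusted p was 0.00969 (limma). The signal of 1 read had a median of 1.30 in mock supporting cells and 0.780 in mock neurons. Hsf1 stood at that floor in 5 of 14 and 8 of 16 regions, so the ratio of 1.87 holds floor values on both sides. As a multiple of the negative probe, mean Hsf1 was 1.99 in supporting cells and 1.50 in neurons. Here 4 of 16 neuron regions lay below every supporting-cell region and 4 of 14 supporting-cell regions above every neuron region, so most of the ranges overlapped. Both calls stand in a comparison with 893 of 4686 genes called (19.1%), 264 of them lower in neurons (5.63%); after subtraction of the negative probe 72 of 1101 calls were lower. The permutation test with 100000 resamples gave p = 2e-05 for Cryab, the smallest it can give, and p = 0.00456 for Hsf1, again over regions that may share an animal.

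The Hsf1 call in mock animals was lost when background was handled otherwise. It was −0.56 after subtraction of the negative probe (limma, adjusted p = 0.103) and −0.50 with the mean of the olfactory receptor genes, which stand for background here, as a covariate (adjusted p = 0.229). With the glial marker mean as a covariate, which itself separates the region types (2.13 in mock neurons and 3.42 in mock supporting cells on the log2 scale), the difference was −0.79 for Cryab (limma, adjusted p = 0.574) and −0.32 for Hsf1 (adjusted p = 0.854).

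After noise the Cryab contrast between region types had a smaller value than in mock. That of Hsf1 had the opposite sign, with 7 of 8 supporting-cell regions at 1 read. The direct comparison of noise effects above passed for neither gene, so a change of either contrast with noise was not shown. Mean Cryab signal after noise was 1.80 times as high in supporting cells as in neurons. All 12 neuron regions lay below the supporting-cell mean, and 4 of 8 supporting-cell regions lay above every neuron region. The log2 difference of neurons minus supporting cells was −0.73 ± 0.26 (SE; 95% interval −1.23 to −0.22), with an adjusted p of 0.0564 (limma), just outside the threshold that 372 of 4686 genes passed (7.94%), 55 of them lower in neurons (1.17%); after subtraction of the negative probe 18 of 393 calls were lower, and after quantile normalization 79 of 314. The exact two-sided permutation test over regions gave p = 0.0033. For Hsf1 the difference was 0.15 ± 0.22 (SE; 95% interval −0.29 to 0.58; limma, adjusted p = 0.802), and the exact permutation test gave p = 0.494. Cryab passed under 8 of 18 alternatives, among them edgeR (−0.96, adjusted p = 0.00447), DESeq2 (−1.11, adjusted p = 0.000785) and quantile normalization (−0.93, adjusted p = 0.00994). Under the other 10 Cryab did not pass. Over these fits its value came as near to 0 as −0.29, and its limma adjusted p reached 0.784. Cryab also passed in limma without any 1 of noise neuron replicates 5 (−0.78), 7 (−0.78) and 13 (−0.77) or noise supporting-cell replicates 4 (−0.79) and 7 (−0.81). It did not pass in the other 45 such fits, and without noise supporting-cell replicate 6 the adjusted p was 0.154 (limma).

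Neuron and supporting-cell regions of the same captured area could be set side by side, which holds the area constant. The deviations of such paired regions from their group means hardly correlated over the genes tested. Their median r was 0.027 in mock and 0.017 after noise. In mock animals Cryab was lower in the neuron region in 14 of 14 areas. Its mean log2 difference was −1.28 ± 0.586 (SD), from −2.11 to −0.26. In area 18 the neuron region had 2.60 and the supporting-cell region 14.6, and in area 12, where they were closest, the signals were 4.16 and 5.20. After noise Cryab was lower in the neuron region in 7 of 7 areas, with a mean of −0.93 ± 0.609 (SD), from −1.72 to −0.19. In area 8 the signals were 2.91 and 11.8, and in area 7 they were 6.24 and 7.28. The exact two-sided sign-flip permutation test gave p = 0.000122 in mock and p = 0.0156 after noise, in each case the smallest the design allows. These 2 and the remaining 4 tests within areas are unadjusted, and areas may share an animal, so the p-values are too small.

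Hsf1 was less regular within areas. In mock animals it was lower in the neuron region in 7 of 14 areas, equal in 4 and higher in 3, with a mean of −0.56 ± 0.871 (SD; exact sign-flip permutation test, p = 0.0352). In 5 of the 7 lower areas the neuron region had 1 read, and in 2 of the 3 higher areas the supporting-cell region did. In 1 of the 7 lower areas both regions had 1 read, so that difference was one of depth. The sign-flip p of 0.0352 rose above 0.05 without any 1 of areas 4, 6, 7, 9, 12, 17 and 19, and at a common floor of 1.56. The means in these fits were −0.56 to −0.38. After noise Hsf1 was lower in the neuron region in 1 of 7 areas, equal in 1 and higher in 5, with a mean of 0.17 ± 0.630 (SD; p = 0.531, exact). In all 5 higher areas the supporting-cell region had 1 read, and in 1 of them both regions did, so these counts show no direction for Hsf1 after noise. Without noise area 7 that mean was −0.0023. The within-area difference in noise minus that in mock was 0.73 ± 0.33 (SE) for Hsf1 (exact permutation test, p = 0.0592) and 0.34 ± 0.28 (SE) for Cryab (p = 0.225, exact). For Hsf1 it passed an unadjusted 0.05 without noise area 8 (0.91, exact permutation p = 0.0184) or without mock area 14 (0.78), 15 (0.82) or 18 (0.80). Noise area 8 was the 1 noise area whose supporting-cell region had more than 1 read of Hsf1. Without it every noise supporting-cell value was a floor, so that fit measures no level after noise.

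**Figure D4:**
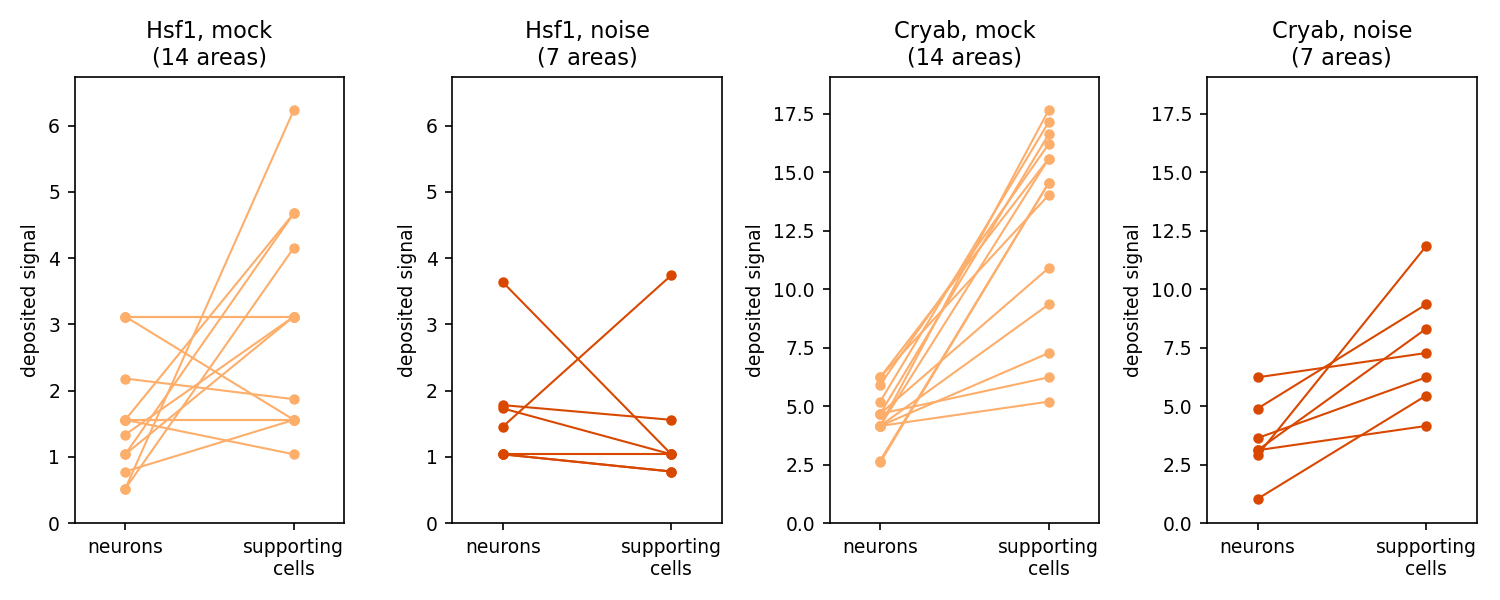
Signal of Hsf1 and Cryab in the neuron and the supporting-cell region of each captured area, 1 line per area, in 14 mock and 7 noise areas. Cryab rises from neurons to supporting cells in all 21 areas, and Hsf1 rises in 7 of 14 mock areas and 1 of 7 noise areas.

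Genes around Hsf1 and Cryab were taken from a list of 63, of which 29 were tested, the 2 included. Among the heat-shock factors Hsf1 alone, and among the small heat-shock proteins Cryab alone, was in the files; the inducible Hsp70 genes Hspa1a and Hspa1b and the co-chaperone Dnajb1 were not analysed here. Of the other 27 genes, 1 was called in neurons after noise. Ubb, a polyubiquitin gene, had 54.0 ± 14.4 (SD, n = 16) in mock and 36.5 ± 10.8 (SD, n = 12) in noise neurons, a log2 difference of −0.57 ± 0.14 (SE; limma, adjusted p = 0.0224), where 0.448% of all genes were called lower. Ubb lost its call under 5 of 18 alternatives, the value closest to 0 being −0.17 with quantile normalization (limma, adjusted p = 0.636). The next largest was Hsp90ab1, the constitutive Hsp90 that holds HSF1, at −0.49 ± 0.21 (SE; limma, adjusted p = 0.278). In all, 23 of the 27 had values below 0 in neurons, with a median of −0.22 against 0.02 over all genes tested.

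In supporting cells none of the 27 passed after noise in limma, while 4 had an unadjusted p below 0.05, as did 474 of all 4686 genes. On reads, edgeR called 8 and DESeq2 11 of 4646 genes, and Cryab was the 1 listed gene among them in each. The largest values were −0.80 ± 0.25 (SE; adjusted p = 0.117) for Hsp90b1, the Hsp90 of the endoplasmic reticulum, and −0.78 ± 0.24 (SE; adjusted p = 0.117) for Gsk3b, a kinase that phosphorylates HSF1, both in limma. Gsk3b had 1.15 ± 0.369 (SD, n = 8) in noise supporting cells, below the mean negative probe signal of 1.42 there. Its difference is therefore limited by background. Without noise supporting-cell replicate 6 Hsp90b1 passed (−0.98, limma, adjusted p = 0.0393). Bag3, a co-chaperone that binds small heat-shock proteins, had −0.18 ± 0.23 (SE; adjusted p = 0.834), and Hspa5, an Hsp70 of the endoplasmic reticulum, 0.41 ± 0.23 (SE; adjusted p = 0.561). Values of 22 of the 27 were below 0, with a median of −0.23 against −0.03 over all genes tested. The values of Hsf1 and Cryab there were close to those of Hsp90b1 and Gsk3b at the low end of the list. Among these 4, the value of Hsf1 was limited by the floor of 1 read and that of Gsk3b by background.

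**Figure D5:**
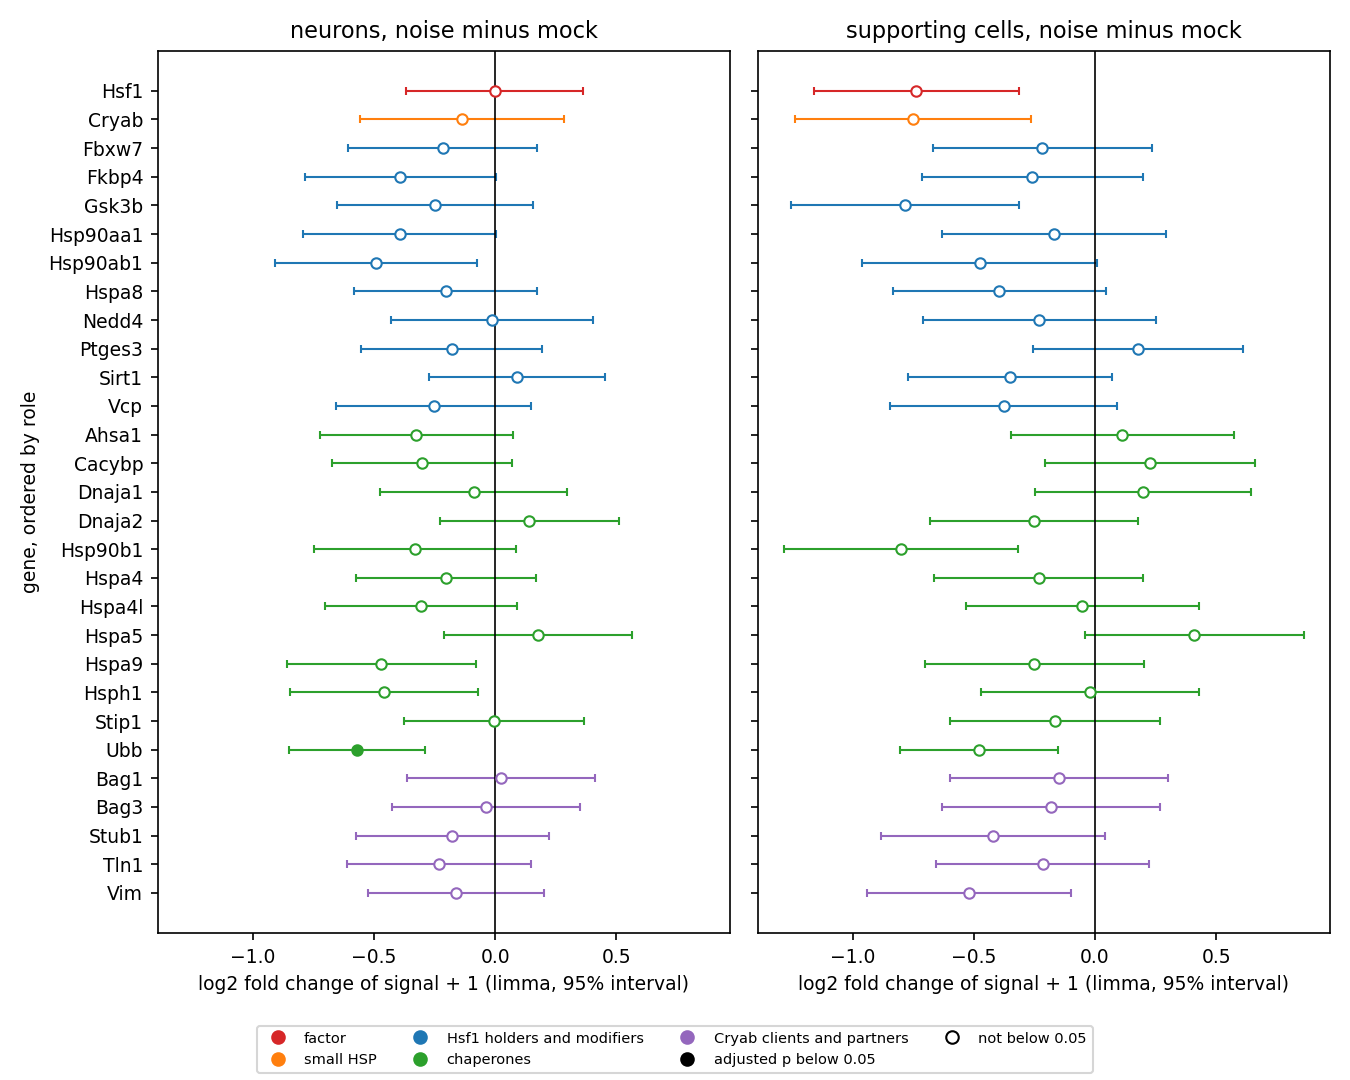
Log2 fold change of noise against mock with 95% intervals (limma) for Hsf1, Cryab and 27 related genes in neurons (left) and supporting cells (right), coloured by role; filled points have an adjusted p below 0.05. Ubb in neurons, at −0.57, is the filled point, and Hsf1 and Cryab lie at −0.74 and −0.75 in supporting cells. The Hsf1 value there is no measured fold, with 7 of 8 noise regions at 1 read.

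Between the region types of mock animals, where Hsf1 and Cryab were lower in neurons, most of the listed genes that were called were higher there. The same direction held for most calls over all genes, with 629 of 893 higher in neurons (13.4% of the genes tested). Of the 27 genes 12 were called, 11 higher in neurons and 1 lower. They were 6 of the 10 holders and modifiers of HSF1, 5 of the 12 genes listed as chaperones under its control, Ubb among them, and 1 of the 5 clients and partners of αB-crystallin. Hspa8, the constitutive Hsp70, had 24.9 ± 6.30 (SD, n = 16) in neurons and 10.3 ± 5.06 (SD, n = 14) in supporting cells, a log2 difference of 1.31 ± 0.19 (SE; limma, adjusted p = 1.15e-10). Hsp90aa1, the inducible cytosolic Hsp90, had 18.7 ± 4.50 and 7.86 ± 4.01, a difference of 1.27 ± 0.20 (SE; limma, adjusted p = 3.23e-09). The other 9 higher in neurons were Hsp90ab1, Hspa4l, Fkbp4, Hsph1, Fbxw7, Ahsa1, Ubb, Gsk3b and Hspa9, with log2 differences of 0.43 to 0.77; Ubb turned to −0.59 under quantile normalization. Vim, an intermediate filament protein that αB-crystallin binds, was the 1 lower in neurons, at −0.59 ± 0.18 (SE; limma, adjusted p = 0.00795). After noise 317 of 372 calls over all genes were higher in neurons (6.76% of the genes tested). Of the 27 listed genes 4 were called, all higher in neurons: Hspa8 (1.50 ± 0.23, SE), Gsk3b (1.08 ± 0.25), Hsp90aa1 (1.05 ± 0.24) and Hsp90ab1 (0.75 ± 0.25). All 4 belong to the holders and modifiers of HSF1. The value for Gsk3b is limited by background, since its mean in noise supporting cells, 1.15, was below that of the negative probe, 1.42. Over 18 alternatives Hspa8 kept its call in mock and in noise, and Hsp90aa1 lost it in 1 in each. After noise Hsp90ab1 lost it in 10 and Gsk3b in 1. In mock the call was lost in 7 for Gsk3b, 6 for Hspa9, 6 for Ubb besides its reversal, 5 for Ahsa1, 5 of 17 for Vim, 4 each for Hsp90ab1, Hsph1 and Fbxw7, 3 for Fkbp4 and 2 of 16 for Hspa4l.

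Across the 50 regions the 5 genes most like Cryab, by Pearson r of log2(signal + 1) among 2343 genes tested with a mean at or above the median, included Pmp22 (0.77), B2m (0.74) and Glul (0.70). Pmp22 is a protein of peripheral myelin, B2m is the light chain of class I histocompatibility molecules, and Glul is glutamine synthetase. After the 4 group means were removed r was 0.33, 0.36 and 0.27, so most of the likeness lay between groups. Those most like Hsf1 included Itih5 (0.51), Srgn (0.50), Itgb8 (0.48) and Camk2n1 (0.47), with within-group values of 0.28, 0.46, 0.30 and 0.26. Hsf1 and Cryab had r of 0.43 with each other and 0.14 within groups. These values are descriptions over 50 regions that share sections and scaling. Cryab also had r of −0.46 with log2 total reads and 0.53 with the negative probe, and Hsf1 had −0.17 and 0.23. Within groups, r with log2 total reads was −0.0066 for Cryab and 0.087 for Hsf1.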

How the data were processed

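Signal values of 6248 genes and 1 negative probe were deposited by the authors for 51 GeoMx regions, scaled so that every region had an upper quartile of 3.12. DRAGEN and the builds mm10 and GRCm38 are named per the submitters' processing notes; the authors' gene filter is not given in the sources used here. The labels' library protocol names a NEBNext Ultra RNA kit. Dividing by each region's lowest value gave whole reads for 99.99% of values (tolerance 0.01; 1 gene did not). 66 entries without a number were left missing, none of them Hsf1 or Cryab. Noise neurons replicate 6 was left out.

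limma 3.58.1 in R 4.3.3 (lmFit, eBayes with a trend) was run on log2(signal + 1) over 4 group means in 50 regions, for the 4686 genes whose mean reached the 0.25 quantile, 1.85. This scale understates changes of low genes. P-values were adjusted by Benjamini-Hochberg over all genes tested and called at 0.05. SEs came from the spread of genes of similar mean, which is too small for a gene that varies more. Recovered reads were tested with edgeR 4.0.16 and DESeq2 1.42.0. Permutation tests used scipy 1.17.1. Replicate numbers did not pair regions (correlation of deviations −0.11 to 0.06).

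The members, lists and rules were chosen with earlier results of these data known. Other genes named are the 5 most like each member, listed genes called in a comparison, the 2 listed genes with the largest change after noise, and glial, fibrocyte and organ of Corti markers beside results they moved with; Bag3 and Hspa5 were named after their values were seen. Some genes picked by these rules are not reported here. Muscle, hair-cell, blood and macrophage lists were not used.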

Additional observations from a re-analysis of the deposited data

Results flagged for a closer look

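Of 11 quantities examined in the 8 noise supporting-cell regions and the 7 noise areas, 4 had a single region far from the rest by Dixon's criterion, which chance alone meets in about 1 in 20 groups. Replicate 6 had a Hsf1 signal of 3.74 where the other 7 lay between 0.780 and 1.56. It had 6 Hsf1 reads where each of the others had 1. It also had 19 Cryab reads where the others had 4 to 8, though its Cryab signal was not set apart. Replicate 6 was the deepest region of its group, with 25605 reads. Replicate 2 had a negative probe signal of 1.89, with the others between 1.24 and 1.45.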

How the results depend on the processing

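Values are limma log2 differences with adjusted p unless another tool is named. Of the 18 alternatives, a common floor, the glial marker covariate and a fit without eBayes moderation were chosen after seeing the data. With the filter at the 0.5 quantile Hsf1 was not tested.

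The direction of Hsf1 in neurons was not stable: noise against mock was 0.0065 with a pseudocount of 0.5, 0.055 with noise neurons replicate 6 kept, 0.017 in the replicate block, 0.0074 in DESeq2 and 0.067 with the glial covariate. Cryab in neurons was 0.0072 with the glial covariate. Hsf1 between region types after noise was −0.042 in DESeq2. In supporting cells after noise, Cryab passed at −0.41 with a pseudocount of 10 (adjusted p = 0.0241), −0.87 in edgeR (0.0487) and −0.85 in DESeq2 (0.0332). Between mock region types Hsf1 missed the threshold at −0.56 (negative probe subtracted), −0.50 (olfactory receptor covariate) and −0.32 (glial covariate), and Cryab at −0.79 (glial covariate). After noise, Cryab between region types passed at −0.73 with the 0.5 quantile filter, with a fit on its 2 groups, with the captured area as a random block, with no trend and with no moderation (adjusted p = 0.0279 to 0.0463), at −0.93 with quantile normalization, −0.96 in edgeR and −1.11 in DESeq2. Within mock areas the Hsf1 mean was −0.38 at a common floor (exact sign-flip permutation, p = 0.0625).

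Counts of genes called moved by over 1.5 times as follows. In neurons, where 31 were called, they were 47 with a pseudocount of 10, 7 with the negative probe subtracted, 3 with the olfactory receptor covariate, 6 with quantile normalization, 19 in the replicate block, 183 in edgeR, 133 in DESeq2, 20 at a common floor, 19 with the glial covariate and 11 with no moderation. In supporting cells, where 17 were called, they were 26 with a pseudocount of 10, 11 with no filter, 4 with a fit on 2 groups, 53 with quantile normalization, 8 in edgeR, 11 in DESeq2, 2 with the glial covariate and 11 with no moderation. The difference of effects had 1 call with a pseudocount of 10 and 1 with quantile normalization. Between mock region types (893) they were 403 with the olfactory receptor covariate, 581 with log2 reads as a covariate, 518 in DESeq2 and 113 with the glial covariate, and after noise (372) they were 238 with log2 reads, 218 in DESeq2 and 141 with the glial covariate. The median of all genes between mock region types was −0.05, and 0.22 after subtraction of the negative probe. The median of the 29 heat-shock genes in supporting cells was −0.061 with a pseudocount of 10. Between region types it was 0.47 (0.5 quantile filter, over the 20 of them still tested, without Hsf1), 0.52 (negative probe subtracted) and 0.55 (glial covariate) in mock, and 0.063 (pseudocount of 10) and 0.48 (negative probe subtracted) after noise. Ubb between mock region types was −0.59 with quantile normalization. The causes were not tested.

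Leaving out each region in turn gave, in neurons after noise, −0.086 to 0.047 for Hsf1 and −0.21 to −0.027 for Cryab. In supporting cells it gave −0.89 to −0.66 and −0.85 to −0.67, and for the difference of effects −0.89 to −0.65 and −0.72 to −0.53. Between region types it gave −0.65 to −0.51 and −1.42 to −1.27 in mock, and 0.06 to 0.30 and −0.81 to −0.62 after noise. Counts ran from 12 (without noise neurons replicate 2) to 35, from 3 (without noise supporting cells replicate 7) to 21, 0 to 0, 834 to 934 and 283 to 402. The neuron count moved by over 1.5 times without noise neurons replicates 1 (16), 2 (12), 9 (19) and 10 (16) or mock neurons replicate 10 (19), and the supporting-cell count without noise replicates 4 (11), 5 (7), 7 (3) and 8 (7) or mock replicates 6 (10), 8 (11), 9 (11) and 12 (9). Among the other heat-shock genes, the call was lost without any 1 of 5 regions for Ubb in neurons, of 10 for Gsk3b and 19 for Hspa9 between mock region types, and of 9 for Hsp90ab1 between noise region types. Medians of the 29 genes ran from −0.24 to −0.15, −0.30 to −0.20, −0.14 to 0.03, 0.11 to 0.24 and 0.16 to 0.29. Leaving out each area gave −0.66 to −0.43 in mock, −0.0023 to 0.35 in noise and 0.56 to 0.91 for their difference with Hsf1, and −1.35 to −1.21, −1.06 to −0.80 and 0.22 to 0.47 with Cryab.

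The replicate numbers share only a number: no same-numbered pair correlated over 0.1. The replicate block changed no other call of Hsf1 or Cryab, with −0.83 and −0.76 in supporting cells and −0.59 and −1.27 between mock region types. Hsf1 at 1 read in 7 of 8 noise supporting-cell regions limits what its differences can show.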
